A study of Mus musculus with 8 samples.

Results

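The filamins, the talin and vinculin linkers, the alpha-actinins, the ERM proteins and zyxin are the cytoskeletal proteins that hold actin filaments together or tie them to the plasma membrane. The 9 genes described here are Flna, Flnc, Tln1, Vcl, Actn1, Actn4, Msn, Ezr and Zyx, out of 25230 gene symbols in the deposited count table, and each was taken by its symbol. They were put together with results of these data already known: Flna for its difference between the treatments, and the other 8 as a paralog of filamin A or as further actin-binding linkers. The difference of Flna is therefore given as a description with no test.

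The counts came from gut intraepithelial lymphocytes (IELs), which are T cells lodged within the lining of the intestine, of 8 C57BL/6J mice. In the Ex4 group 4 mice received 35 µg of anti-CD3, an antibody that activates T cells through their receptor complex, together with 10 nmol/kg of exendin-4, an agonist of the GLP-1 receptor. In the PBS group 4 mice received the same anti-CD3 with PBS. All 8 animals were thus activated, and no untreated mice are analysed here. Gut cells were collected after 3 hours, enriched on Percoll and taken by flow sorting as CD45-positive, which selects leukocytes in general and not T cells alone. The age of the mice is not given in the sources used here, and the labels describe separate mice with no litter, cage or day.

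Filamins are long, flexible dimers that cross-link actin filaments at wide angles and bind the tails of integrins and of many signalling proteins. Talin joins the integrin beta tail to actin and switches the integrin on, and vinculin reinforces that link under force. Alpha-actinins bundle filaments, the ERM proteins (ezrin, radixin and moesin) anchor the actin cortex to membrane proteins, and zyxin sits where filaments are strained and helps to repair them. In T cells these proteins shape the contact with the target cell, adhesion and migration. Several of their genes are textbook targets of the serum response factor, which reads the pool of free actin through MRTF coactivators and binds a motif called the CArG box.

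All 9 genes had a promoter window in RefSeq (GRCm38.p6), which spans 250 bases before to 50 bases after an annotated start, and Flnc had a pair of such windows. The windows of Flna, its paralog Flnc and Vcl are shown because Flna is the gene whose level differed, Flnc is the paralog among the 9 genes whose level did not pass the test, and Vcl is the one gene of the 9 with a CArG box. Each is printed 5′ to 3′ on the gene's own strand, with Sp1 boxes (GGGCGG), half-sites of the cAMP response element (TGACG) and CArG boxes in capitals on either strand.
Flna, chrX:74246485-74246784, minus strand: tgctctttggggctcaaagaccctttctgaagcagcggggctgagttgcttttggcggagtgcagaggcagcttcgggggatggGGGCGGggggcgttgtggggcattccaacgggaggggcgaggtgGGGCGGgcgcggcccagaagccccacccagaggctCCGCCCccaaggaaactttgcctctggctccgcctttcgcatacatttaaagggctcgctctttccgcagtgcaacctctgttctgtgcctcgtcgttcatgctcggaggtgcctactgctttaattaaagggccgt
Flnc, chr6:29432903-29433202, plus strand: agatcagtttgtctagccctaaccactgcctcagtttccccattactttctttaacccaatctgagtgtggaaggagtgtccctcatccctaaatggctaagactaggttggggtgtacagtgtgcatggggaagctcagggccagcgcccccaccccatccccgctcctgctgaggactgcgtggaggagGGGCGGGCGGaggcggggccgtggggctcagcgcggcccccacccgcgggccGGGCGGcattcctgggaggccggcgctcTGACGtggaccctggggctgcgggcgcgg
Vcl, chr14:20929148-20929447, plus strand: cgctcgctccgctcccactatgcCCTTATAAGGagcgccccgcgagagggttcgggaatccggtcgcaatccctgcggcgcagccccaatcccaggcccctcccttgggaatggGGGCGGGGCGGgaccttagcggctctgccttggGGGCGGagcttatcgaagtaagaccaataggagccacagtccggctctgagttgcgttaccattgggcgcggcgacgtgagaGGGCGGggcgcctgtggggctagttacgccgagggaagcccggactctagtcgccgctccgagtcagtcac
The Flna window held 3 Sp1 boxes and 0 half-sites. The full cAMP response element TGACGTCA, which contains the half-site, was in 0 of the 9 genes' windows and in 1.79% of 32851 promoter windows of the same length. A half-site was in windows of 4 genes (Flnc, Tln1, Actn1 and Actn4), against 20.8% of all windows. Sp1 boxes were in 8 of the 9 genes, all but Tln1, against 35.7% of all windows, and a CArG box in Vcl alone, against 1.63%. GC content was 62% in the Flna window and 57% to 76.3% over the 10 windows, against a median of 52.7% over all windows, and the Sp1 box is itself made of G and C. A match describes letters in these windows and is no evidence of binding. RefSeq places the 5′ boundary of the gene 3320 bases upstream of the start used for the Flna window, so other starts of Flna were not covered.

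The libraries held 13386889 to 31843413 gene counts in the Ex4 group and 18266449 to 25333644 in the PBS group. Values are given as CPM (counts scaled to a common library size, with TMM factors), with the SD over 4 libraries after ±, or as RPKM (CPM per kilobase of the gene's exons) where genes are compared with each other. The sort was checked against defining markers: all 11 T cell and IEL markers were found in every library, with Ptprc, which encodes CD45, at 1263 ± 218 CPM in Ex4 and 1229 ± 94.9 CPM in PBS. Markers of other cells were also present. Each of their sums was lower than that of the 11 T cell and IEL markers, which ran from 69850 to 83460 CPM in Ex4 and from 53410 to 78490 CPM in PBS. Single genes did not all keep that order, as Jchain, a B and plasma cell marker, reached 1762 CPM and Ptprc at most 1538 CPM. Summed epithelial markers (14 genes) ran from 319.9 to 690.2 CPM in Ex4 and from 616 to 1337 CPM in PBS, and B and plasma cell markers (8 genes) from 259 to 2212 CPM in Ex4 and from 849 to 1469 CPM in PBS. In such bulk libraries fewer cells of a type and less RNA per cell cannot be told apart.

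Flna, which encodes filamin A, was the gene of the set that stood apart between the treatments. It had 104, 135, 139.7 and 143 CPM in Ex4 libraries 1 to 4, against 49.5, 48.9, 38.1 and 37.9 CPM in PBS libraries 1 to 4. All 4 Ex4 libraries lay above all 4 PBS libraries, with Ex4 1 the lowest of its group. The means were 130.4 ± 17.9 CPM in Ex4 and 43.6 ± 6.47 CPM in PBS, a ratio of 2.99, and the log2 fold change, fitted as the log2 of Ex4 over PBS, was 1.58 (SE 0.15, 95% interval 1.26 to 1.90). The coefficient of variation, the SD as a share of the mean, was 13.8% in Ex4 and 14.8% in PBS. Flna was 1 of the 2 genes called at an adjusted p of 0.05 among 14691 tested (edgeR quasi-likelihood test, Benjamini-Hochberg), or 0.0136%, and since it was chosen from that contrast nothing is read from its call. The labels number the samples in 2 runs, 3 to 6 and 11 to 19, whose meaning they do not give. Within these runs, each with 2 Ex4 and 2 PBS libraries, the difference in mean log2 CPM of Flna was 1.27 and 1.89.

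Of the other 8 genes 0 were called in the same test, which calls 0.0136% of all genes, and 0 had an unadjusted p under 0.05, against 7.61% of all genes tested. Their log2 fold changes ran from -0.28 to 0.35, with 5 above and 3 below 0, where 52.9% of all genes tested lay above 0. The highest upper bound of their 95% intervals was 1.24, for Actn1. The groups overlapped in all 8, where 4.95% of all genes tested had groups that did not overlap. The plot of log2 fold changes sets the genes side by side.

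**Figure D1:**
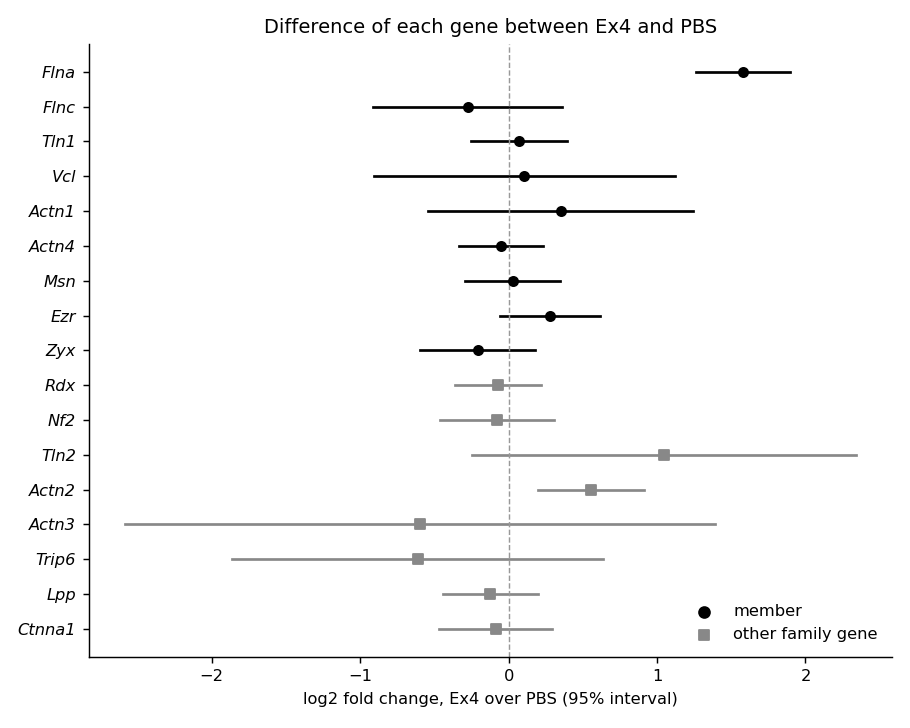
Log2 fold change of Ex4 over PBS (horizontal axis) with its 95% interval for the 9 genes (black circles) and 8 further genes of their families (grey squares). Flna lies at 1.58, and the intervals of Tln2, Actn3 and Trip6, at a few CPM or less, are the widest.

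Flnc, the paralog of Flna among the 9 genes, encodes the filamin of striated muscle and had 16.3, 12.04, 10.3 and 24.7 CPM in Ex4 and 21.8, 18.0, 25.5 and 11.0 CPM in PBS. Its libraries were spread widely in both groups, with a coefficient of variation of 40.6% in Ex4 and 32.4% in PBS, and the groups overlapped. The log2 fold change of Flnc was -0.28 (SE 0.30, 95% interval -0.91 to 0.36, edgeR adjusted p = 0.884), and it ran from -0.58 without Ex4 4 to -0.14 without PBS 3.

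Each library also gives the ratio of the pair. On the log2 scale of CPM the difference between Flna and Flnc was 2.67, 3.48, 3.75 and 2.53 in Ex4 libraries 1 to 4, against 1.183, 1.44, 0.58 and 1.77 in PBS libraries 1 to 4. Flna was above Flnc in all 8 libraries, and every Ex4 difference exceeded every PBS difference. The means were 3.11 ± 0.60 in Ex4 and 1.24 ± 0.51 in PBS. These ratios contain the Flna values that chose the set and are a description.

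Partners of filamin were taken as a list of 13 genes that includes Flna and Flnc, and 1 of the 13 was called, Flna itself. The median log2 fold change of the list was -0.12, with 5 genes above and 8 below 0, against a median of 0.02 over all genes tested, and the list's median ran from -0.23 without Ex4 4 to 0.0114 without PBS 4. Asb2, which encodes the substrate receptor of a ubiquitin ligase that targets filamins for degradation in blood cells, had 192, 198, 121 and 143 CPM in Ex4 and 431, 205, 180.5 and 259 CPM in PBS. Ex4 1 and Ex4 2 lay inside the PBS range, and PBS 1 stood far above the other libraries. The log2 fold change of Asb2 was -0.72 (SE 0.26, edgeR adjusted p = 0.538), and -0.40 without PBS 1. Traf2, an adaptor of TNF receptors, had a log2 fold change of -0.29 and Rala, a small GTPase, of 0.16, and neither passed the test (edgeR adjusted p = 0.741 and 0.845).

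Talin 1 was abundant, and its level overlapped between the groups. Tln1 had 177, 134, 125.5 and 171 CPM in Ex4 libraries 1 to 4, against 142, 173, 120.2 and 145 CPM in PBS libraries 1 to 4. The ranges overlapped almost fully, and the log2 fold change was 0.07 (SE 0.15, 95% interval -0.26 to 0.39, edgeR adjusted p = 0.951). Tln2, the talin of muscle and brain, was scarce at 3.27 ± 2.37 CPM in Ex4 and 1.58 ± 0.71 CPM in PBS, so that Tln1 held 98.1% to 99.7% of the talin level in Ex4 and 98.9% to 99.7% in PBS. Vcl was among the scarcest genes of the set, with 32 to 175 counts per library. It had 3.59, 6.58, 1.69 and 2.27 CPM in Ex4 and 2.79, 5.27, 2.48 and 2.59 CPM in PBS, where replicate 2 was the highest library in both groups. Its log2 fold change of 0.11 (SE 0.48, 95% interval -0.91 to 1.12, edgeR adjusted p = 0.979) was -0.41 without Ex4 2 and 0.42 without PBS 2. The coefficient of variation of Vcl was 61.9% in Ex4 and 40.6% in PBS, and a change within that interval could not be told from the spread between libraries.

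In the list of talin, vinculin and integrin adhesion genes 0 of 30 tested were called, with 17 above and 13 below 0 and a median log2 fold change of 0.04. Fyb, which encodes the adaptor ADAP that couples the T cell receptor to integrin activation, was at 191 ± 15.9 CPM in Ex4 and 130.5 ± 39.9 CPM in PBS (log2 fold change 0.55, SE 0.18, edgeR adjusted p = 0.456). Rap1b, a small GTPase that recruits talin to integrins, had a log2 fold change of 0.35 and Itgb7, the beta chain of the integrins that hold IELs in the gut, of 0.39, and neither was called (edgeR adjusted p = 0.565 and 0.636). The other kinds of cytoskeletal list are compared in the plot of lists.

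The alpha-actinins were led by Actn4 and Actn2. Actn4, the non-muscle isoform that moves between cytoplasm and nucleus, had 204, 185, 176 and 148 CPM in Ex4 and 197, 200.5, 164 and 177 CPM in PBS. The groups overlapped, and its log2 fold change of -0.05 had a narrow interval (SE 0.13, 95% interval -0.33 to 0.23, edgeR adjusted p = 0.963). Actn1, the non-muscle isoform of focal adhesions, was scarce, with 34 to 93 counts per library. It had 4.12, 3.01, 2.59 and 3.26 CPM in Ex4 and 2.98, 1.91, 1.69 and 3.60 CPM in PBS, so that a single Ex4 library lay above the PBS range. The log2 fold change of Actn1 was 0.35 (SE 0.42, 95% interval -0.54 to 1.24, edgeR adjusted p = 0.898). It was 0.16 without PBS 3, 0.20 without Ex4 1, 0.22 without PBS 2 and 0.54 without PBS 4.

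Actn2, best known as the alpha-actinin of the muscle Z-disc, was not scarce in these libraries: it had 92.2, 74.1, 101.1 and 114 CPM in Ex4 libraries 1 to 4, against 59.6, 82.3, 51.7 and 65.4 CPM in PBS libraries 1 to 4. In all, 3 of the Ex4 libraries lay above every PBS library, and Ex4 2 lay below PBS 2. Its log2 fold change was 0.56 (SE 0.17, 95% interval 0.20 to 0.91), short of the threshold with an edgeR adjusted p of 0.429. Per length Actn2 made up 45.5% ± 6.87 of the alpha-actinin level in Ex4 and 35.2% ± 3.07 in PBS, Actn4 52.9% ± 7.01 in Ex4 and 62.8% ± 3.42 in PBS, and Actn1 about 1% in each. The 8 smooth muscle markers summed to 8.07 to 23.6 CPM in Ex4 and 10.4 to 18.0 CPM in PBS, and 7 of the 8 had a count in every library, with Myh11 at up to 7.57 CPM, Tagln 5.23 and Des 5.19, while Myl9 had one in 2 of 8 libraries. Their part in the Actn2 values was not tested.

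Among 33 tested alpha-actinins and other actin cross-linkers 0 were called, 16 lay above and 17 below 0, and the median log2 fold change was -0.01. Beside Actn2, the smallest unadjusted p-values were those of Dst, a spectraplakin that links actin to other filaments, and Tagln2, a calponin family protein of T cells. Dst was at 11.3 ± 4.95 CPM in Ex4 and 5.58 ± 2.18 CPM in PBS (log2 fold change 1.01, SE 0.37, edgeR adjusted p = 0.524). Tagln2 had a log2 fold change of 0.35 (edgeR adjusted p = 0.556), with every Ex4 library above every PBS library.

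The ERM genes were the most abundant of the set. Ezr, which encodes ezrin, had 229, 227, 258 and 242 CPM in Ex4 libraries 1 to 4, against 141, 248.7, 204 and 194 CPM in PBS libraries 1 to 4. The Ex4 libraries were close together, whereas PBS 1 was low and PBS 2 lay within the Ex4 range. The log2 fold change of Ezr was 0.28 (SE 0.16, 95% interval -0.06 to 0.61, edgeR adjusted p = 0.716), and it ran from 0.14 without PBS 1 to 0.40 without PBS 2. Msn, which encodes moesin, the main ERM protein of lymphocytes, had 339, 299.9, 319 and 231 CPM in Ex4 and 316, 336, 255 and 258 CPM in PBS. Its groups overlapped fully (log2 fold change 0.03, SE 0.15, 95% interval -0.29 to 0.35, edgeR adjusted p = 0.981). The third ERM gene, Rdx, which encodes radixin, was at 128.5 ± 16.3 CPM in Ex4 and 135 ± 16.5 CPM in PBS, and Nf2, which encodes the related tumour suppressor merlin, at 19.9 ± 2.88 CPM in Ex4 and 21.0 ± 2.89 CPM in PBS, and neither was called (edgeR adjusted p = 0.943 and 0.952).

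Per length, Ezr held 46.7% to 54.7% of the ERM level in Ex4 and 34.2% to 48.9% in PBS, and Msn 27.2% to 36% in Ex4 and 31.2% to 39.9% in PBS. The 34.2% was PBS 1, the one library in which Msn exceeded Ezr with exon lengths. With the longest transcript the mean of Msn exceeded that of Ezr in both groups. In the list of ERM proteins, their regulators and partners 0 of 21 were called, 10 lay above and 11 below 0, and the median log2 fold change was -0.01. Pdzk1, a scaffold of the epithelial brush border, had 5.41, 5.38, 5.38 and 5.31 CPM in Ex4 and 13.6, 10.5, 12.7 and 9.001 CPM in PBS, with no overlap between the groups. Pdzk1 gave -1.09 on the log2 scale (SE 0.25), which missed the threshold in edgeR (adjusted p = 0.310) and passed it in DESeq2 (adjusted p = 0.0042), which called 0.895% of genes. Summed epithelial markers, as given above, had a lower range in Ex4 but the groups overlapped, with Ex4 2 above PBS 1 and PBS 2. The part of epithelial transcripts in the Pdzk1 values was not tested. Phlpp1, a phosphatase, had a log2 fold change of 0.74 and Slc9a3r2, a scaffold that binds ERM proteins, of -0.88, which was -0.52 without PBS 1 (edgeR adjusted p = 0.432 and 0.556).

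**Figure D2:**
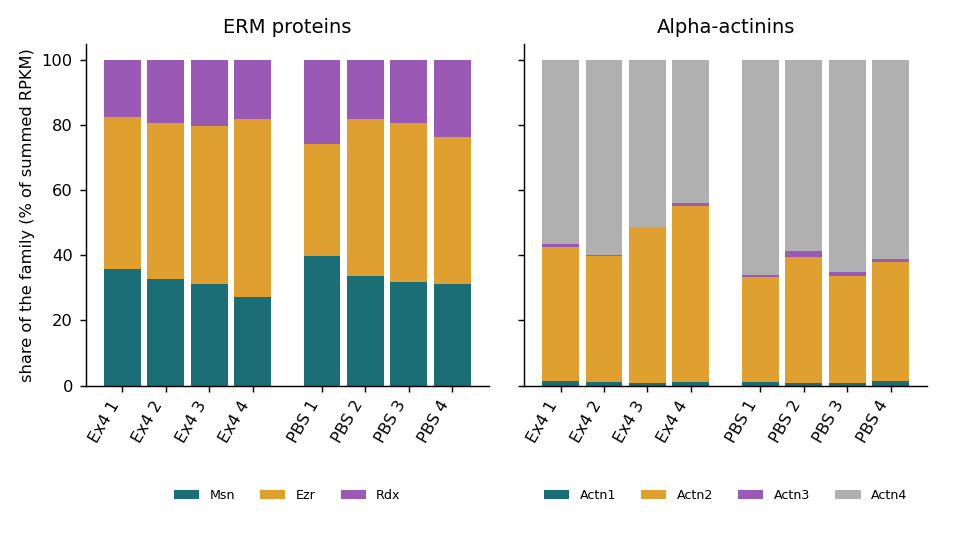
Share of each gene in the summed RPKM of its family (vertical axis, %) in every library, for the ERM proteins and the alpha-actinins. The Ezr share is 46.7% to 54.7% in the 4 Ex4 libraries and 34.2% to 48.9% in the 4 PBS libraries.

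Zyx had 45.9, 33.6, 43.5 and 48.5 CPM in Ex4 libraries 1 to 4, against 60.3, 50.6, 33.2 and 54.1 CPM in PBS libraries 1 to 4. In all, 3 of the PBS libraries lay above all Ex4 libraries and PBS 3 lay below them all. The log2 fold change was -0.21 (SE 0.18, 95% interval -0.60 to 0.18, edgeR adjusted p = 0.852), and it was -0.40 without PBS 3, -0.13 without Ex4 2 and -0.11 without PBS 1. Within the runs of label numbers the difference in mean log2 CPM of Zyx was -0.49 for 3 to 6 and 0.11 for 11 to 19, so its sign was not shared. Of the family members of zyxin, Lpp was at 37.0 ± 4.41 CPM in Ex4 and 40.3 ± 5.25 CPM in PBS, and Trip6 at 1.30 ± 0.64 CPM in Ex4 and 2.00 ± 0.74 CPM in PBS. Alpha-catenin, the vinculin relative that joins cadherins to actin, had its gene Ctnna1 at 120.7 ± 34.1 CPM in Ex4 and 128 ± 13.3 CPM in PBS. In the list of the zyxin family and Ena/VASP 0 of 9 tested were called, with 1 above and 8 below 0 and a median of -0.20. Of these, Evl, an Ena/VASP protein of lymphocytes, had a log2 fold change of -0.49 and of -0.02 without PBS 1, Tes of -0.22 and Limd1 of -0.12, with edgeR adjusted p-values of 0.766, 0.805 and 0.861.

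**Figure D3:**
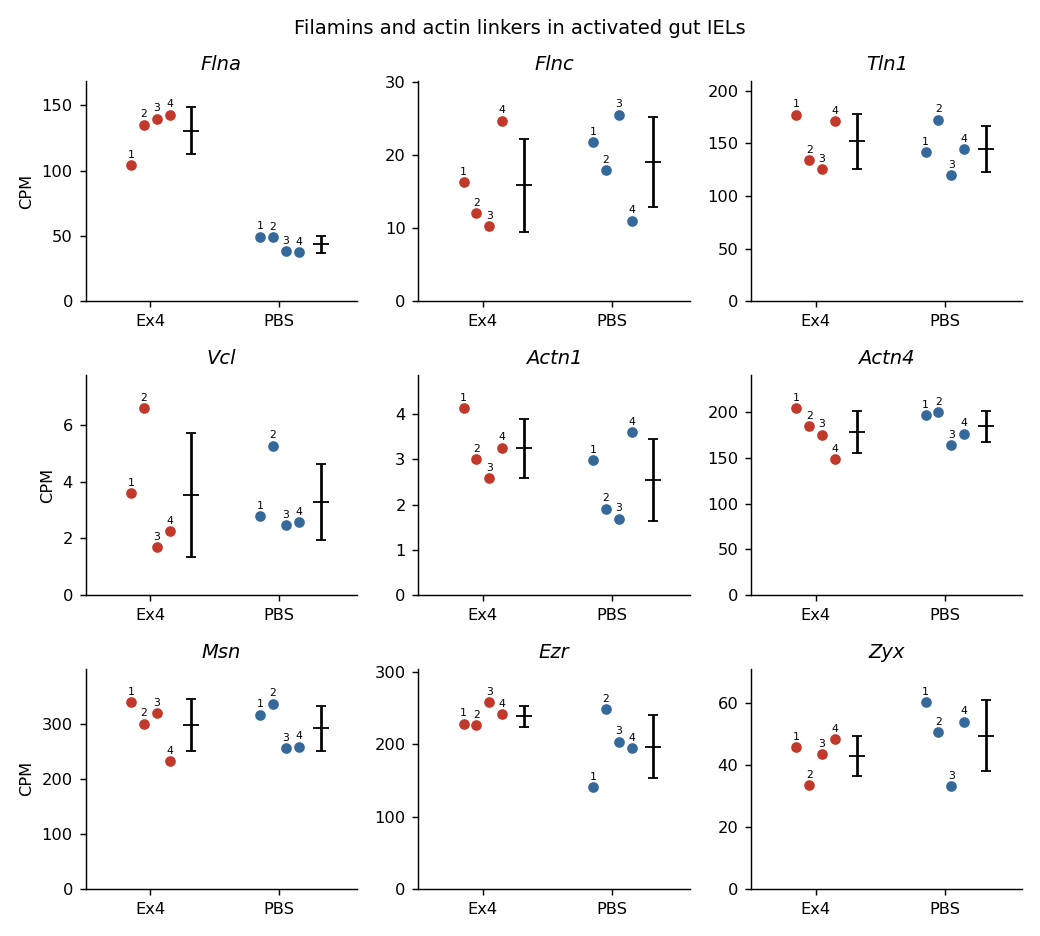
CPM (vertical axis, from 0) of each of the 9 genes in Ex4 (left, red) and PBS (right, blue) libraries, numbered by replicate, with the mean and SD as bars. The 4 Ex4 libraries of Flna sit between 104 and 143 CPM, all above the PBS libraries, and the groups overlap for the other 8 genes.

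Levels of different genes were compared per length. In Ex4 the order was Ezr (72.6 ± 4.47 RPKM), Msn (47.0 ± 7.37), Actn4 (29.1 ± 3.79), Tln1 (15.5 ± 2.67), Flna (13.9 ± 1.91), Zyx (7.96 ± 1.20), Flnc (1.68 ± 0.68), Actn1 (0.59 ± 0.12) and Vcl (0.43 ± 0.27). In PBS it was the same except that Zyx (9.19 ± 2.15 RPKM) stood above Flna (4.64 ± 0.69 RPKM), and in each group the lower of this pair was lower in all 4 libraries. Neighbours whose ranges overlapped were Tln1 with Flna and Actn1 with Vcl in Ex4, and Ezr with Msn and Actn1 with Vcl in PBS. The other neighbours did not overlap between libraries. With the longest transcript in place of all exons Msn came before Ezr in both groups, so the order of this pair rests on the length used, while Flna kept its place.

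**Figure D4:**
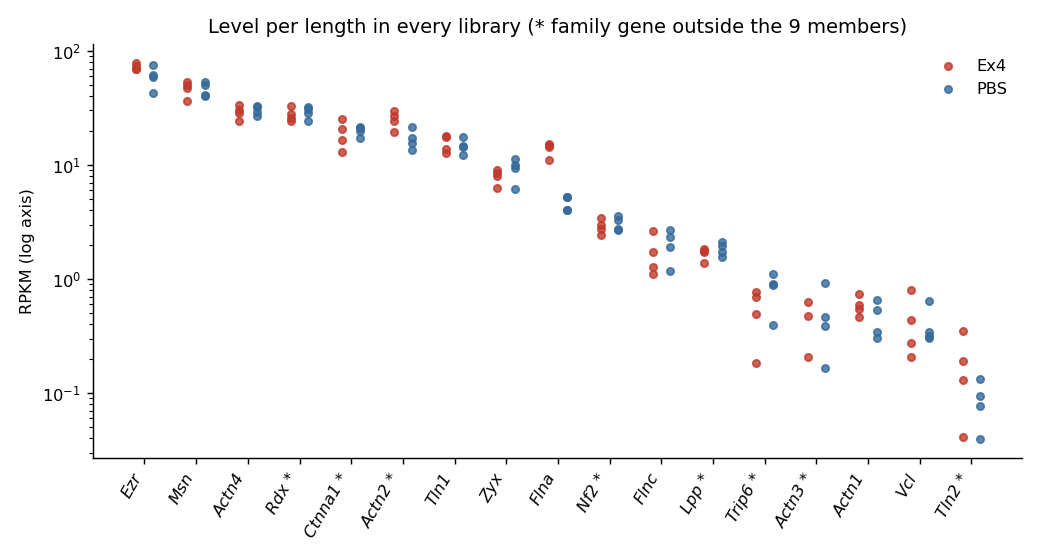
RPKM (log axis) of the 9 genes and 8 family genes (starred) in Ex4 (red) and PBS (blue) libraries, in the order of the PBS means. Flna has 11.1 to 15.2 RPKM in Ex4 and 4.03 to 5.27 RPKM in PBS; Actn3 had 0 counts in Ex4 3, which a log axis cannot show.

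The 9 genes did not vary as one group among the libraries. After each group's mean was removed, the correlation of Flna with the other 8 genes over 8 libraries ran from -0.32 to 0.29. The closest pair of the 36 was Actn4 with Msn, with a Pearson r of 0.91 over the 8 libraries and 0.94 after the group means were removed. Their ratio per length, Msn over Actn4, stayed between 1.51 and 1.76 in Ex4 and between 1.42 and 1.63 in PBS. Both also went with depth, as Msn had an r of 0.75 and Actn4 of 0.55 with the log2 total counts, and the points share library and scaling. These correlations are descriptions over 8 libraries.

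The genes with a pattern most like Flna were taken by Pearson r of log2 CPM over the 8 libraries, among 8663 genes. These had a log2 CPM that averaged 3 or more, and predicted genes (Gm numbers), Rik clones and antigen receptor segments were left out. The first 5 were Cd1d1 (0.95), Nmb (0.95), Fam117b (0.94), Tmem50a (0.94) and Babam2 (0.94). All 5 were without overlap between the groups, as were 4.95% of all genes tested, and since likeness was taken to a gene whose groups lie apart, nothing is read from this count. Cd1d1, which presents lipids to natural killer T cells, was at 80.2 ± 6.81 CPM in Ex4 and 40.0 ± 6.78 CPM in PBS. Cd1d1 was the other of the 2 genes called over the whole table (log2 fold change 1.00, edgeR adjusted p = 0.0386). As it was picked here by likeness to Flna, nothing is read from its call. Nmb, the gene of the peptide neuromedin B, was at 29.5 ± 3.20 CPM in Ex4 and 18.7 ± 1.62 CPM in PBS, and Babam2, a subunit of deubiquitinase complexes, at 117.8 ± 5.69 CPM in Ex4 and 89.2 ± 4.88 CPM in PBS. On deviations from the group means, which leave out the difference between treatments, the list was another: Haus4 (0.97), Stk38 (0.95), Gid8 (0.94), Trmt2b (0.93) and Npc1 (0.92). In this ranking by the 8 libraries Actn2 had an r of 0.80 and stood at place 113, and Ezr, with an r of 0.56, at place 797.

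Further lists covered the rest of the actin machinery. Of 39 tested genes of actin monomers and polymerisation 0 were called, 23 lay above and 16 below 0, and the median log2 fold change was 0.09. Arpc3, a subunit of the Arp2/3 complex that branches actin filaments, had 472, 449, 646 and 479 CPM in Ex4 and 170.4, 372, 294.7 and 300.6 CPM in PBS, with no overlap. Arpc3 gave 0.85 on the log2 scale (SE 0.21), which missed the threshold in edgeR (adjusted p = 0.310) and passed it in DESeq2 (adjusted p = 0.0162). It was 0.65 without PBS 1, the lowest library. Ssh2, a phosphatase that activates cofilin, had a log2 fold change of 0.89 (0.60 without PBS 1) and Arpc1a of 0.33, and neither was called (edgeR adjusted p = 0.564 and 0.592).

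Of 14 tested non-muscle actomyosin genes 0 were called, 8 lay above and 6 below 0, and the median was 0.14. Myl12b, a regulatory light chain, was at 1304 ± 69.8 CPM in Ex4 and 992 ± 200.9 CPM in PBS (log2 fold change 0.39, edgeR adjusted p = 0.558, and 0.26 without PBS 1). Myo1g, a class I myosin of lymphocytes, had a log2 fold change of -0.44 and Myh9, the heavy chain of non-muscle myosin IIA, of 0.26 (edgeR adjusted p = 0.534 and 0.764). In the list of SRF, MRTF and their targets 21 genes were tested and 1 was called, Flna, which the list holds by its textbook role, with 14 above and 7 below 0 and a median of 0.12. Elk3, a partner of SRF, had a log2 fold change of 0.49, Junb of 0.43 (0.24 without PBS 1) and Fos of -0.26, and none was called (edgeR adjusted p from 0.538 to 0.766). Over the 8 lists together 171 genes were tested, 1 was called and 10 had groups that did not overlap, or 8 with Ex4 higher and 2 with Ex4 lower, where the shares over all genes tested were 2.29% and 2.66%. At an unadjusted p under 0.05 they held 16 genes higher and 5 lower in Ex4, against 3.71% and 3.9% of all genes tested. Flna is among the 8 without overlap and among the 16. Since it chose the set and the lists were drawn up with results known, nothing is read from these counts. PBS 1 was the lowest or highest PBS library in 19 of the 24 further list genes ranked first by p, PBS 2 in 16, PBS 3 in 7 and PBS 4 in 6. The same share over all genes was not taken, so these counts are a description.

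**Figure D5:**
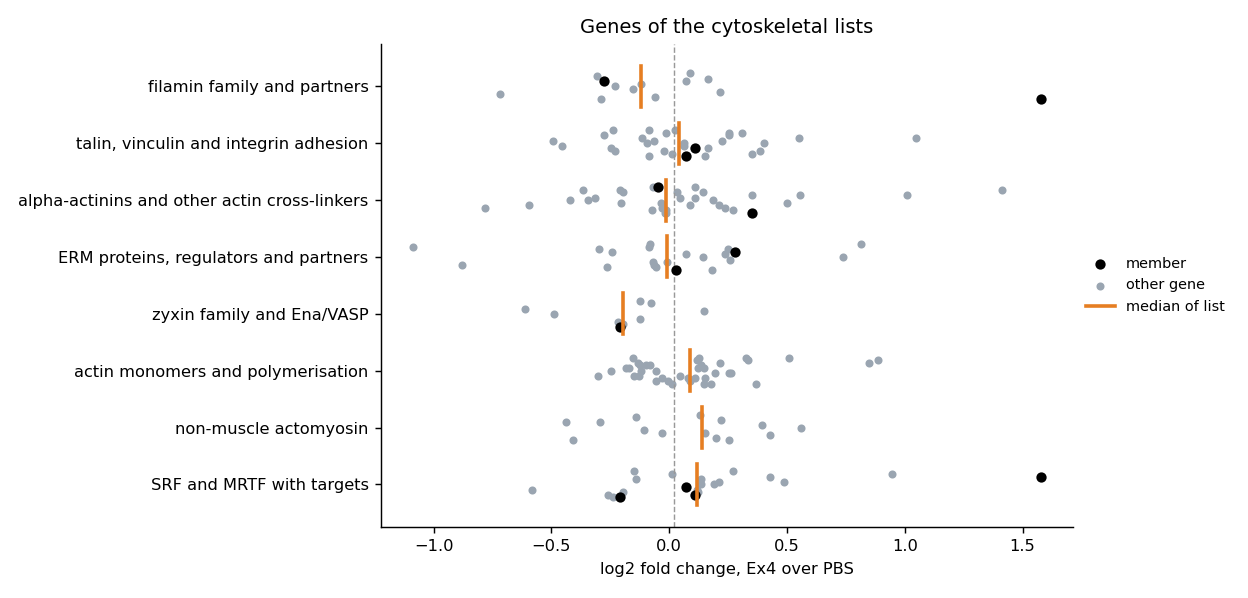
Log2 fold change of Ex4 over PBS (horizontal axis) of every tested gene of the 8 cytoskeletal lists; black points are the 9 genes, grey points other genes, orange bars list medians and the dashed line the median of all genes, 0.02. List medians lie between -0.20 and 0.14, and Flna, in 2 lists, lies at 1.58.

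Flna lies on chromosome X from 74223461 to 74249854 (GRCm38), and RefSeq places no other gene over it. Of 19 annotated genes within 100000 bases on either side 9 were tested and 0 were called, with log2 fold changes from -0.37 for Fam50a to 0.33 for Plxna3 and adjusted p-values of at least 0.499 (edgeR). The nearest tested neighbour, Emd, which encodes the nuclear envelope protein emerin, was at 84.1 ± 12.7 CPM in Ex4 and 73.8 ± 14.1 CPM in PBS. Vcl, Actn4 and Zyx overlap Ap3m1, Capn12 and Epha1 in the annotation, and since the counter's use of strand is not given, reads in those overlaps are uncertain.

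Markers of cells that are rich in filamin A or could carry it were measured beside Flna. Platelet markers (8 genes) summed to 55.6 to 68.9 CPM in Ex4 and 42.4 to 58.1 CPM in PBS, and the sum had an r of 0.79 with Flna over the 8 libraries. Of its genes Itgb3 ran from 26.8 to 48.5 CPM and Itga2b, the integrin chain CD41, from 7.14 to 16.6 CPM over all libraries. The highest level was 2.93 CPM for Pf4, 1.97 CPM for Gp1ba, 1.29 CPM for Gp1bb, 0.64 CPM for Treml1, 0.27 CPM for Gp9 and 0.13 CPM for Ppbp, and 5 of the 8 had a count in every library. Conventional T cell markers (12 genes) summed to 319.8 to 522 CPM in Ex4 and 219 to 378 CPM in PBS. Of these, Icos was at 152 ± 50.02 CPM in Ex4 and 55.7 ± 38.4 CPM in PBS. Endothelial markers (8 genes) summed to 41.3 to 60.5 CPM in Ex4 and 54.7 to 97.1 CPM in PBS, with Emcn at 0 in all libraries, and fibroblast markers to 57.7 to 95.8 CPM in Ex4 and 52.7 to 78.1 CPM in PBS, with Dcn found in 1 library. Macrophage and dendritic cell markers (10 genes) summed to 120 to 196 CPM in Ex4 and 109.6 to 230.2 CPM in PBS, and neutrophil markers to 14.1 to 43.9 CPM in Ex4 and 3.49 to 34 CPM in PBS. The groups overlapped in each of these sums, and 0 genes of any marker list were called. Over the 8 libraries the r of the other marker sums with Flna ran from -0.60 (endothelial) to 0.66 (conventional T cell). These r values, with that of the platelet sum, span the groups between which Flna lies apart, so they are descriptions. The part of platelet-expressed and conventional T cell transcripts in the Flna values was not tested, and with the epithelial marker score as a term in the fit the log2 fold change of Flna was 1.56.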

How the data were processed

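Per the labels' protocols, RNA of CD45-sorted gut cells was extracted with TRIzol and made into stranded TruSeq mRNA libraries, sequenced as paired reads of 200 bp. The authors deposited raw whole-number counts per gene symbol for 25230 genes, 1 column per mouse, and 0 per-sample columns were left unused. STAR 2.7.9a, DESeq2 and mm10 are named without role or order, per the submitters' processing notes. Neither the read counter nor its annotation is stated in the labels or notes.

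The members, gene lists and tests were chosen with earlier results of these data known. edgeR 4.0.16 (R 4.3.3) was run on the whole table with TMM factors and the robust quasi-likelihood F test after filterByExpr had removed low genes. P-values were adjusted over 14691 genes (Benjamini-Hochberg), with a threshold of 0.05. SEs were derived from the fold change and its F statistic, and intervals from the fitted degrees of freedom. Alternatives used DESeq2 1.42.0 and limma 3.58.1 (voom). log2 CPM used a prior count of 2. RPKM used exon lengths of GENCODE vM21 (GRCm38). Coordinates and promoters came from RefSeq. Beside the 9 genes and 8 named family genes, the text names the 3 further genes of each list with the smallest unadjusted p, the genes most like Flna, and marker genes. A further gene of the families and lists is not reported here. The neighbours of Flna were chosen after its values were seen. No pair of replicates agreed within counting noise (mean chi-square per gene 22.1 to 82.7), so none was counted as 1 library deposited again. P-values judge the difference between the groups against the spread between mice. Tables and figures used Python 3.11.15, numpy 2.4.6, pandas 2.3.3 and matplotlib 3.10.9.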

Additional observations from a re-analysis of the deposited data

Results flagged for a closer look

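Dixon's ratio, the gap between an extreme library and the next over the range of its 4 libraries, was taken for the 9 genes and 8 family genes (log2 CPM), the 8 cytoskeletal list means and the 10 marker sums. It exceeded its 95% limit in 6 of 70 sets of 4 libraries, where about 1 in 20 would do so by chance. Among the 9 genes this was Vcl, which was high in PBS 2 at a log2 CPM of 2.42 against 1.53 for the nearest PBS library (ratio 0.845). The mean log2 CPM of actin monomer and polymerisation genes was high in Ex4 3, at 7.56 against 7.46 (ratio 0.905), and that of the alpha-actinins and other cross-linkers in PBS 3, at 4.77 against 4.50 (ratio 0.905). Epithelial markers were low in Ex4 1 (log2 summed CPM 8.33 against 9.25, ratio 0.834), platelet markers high in Ex4 4 (6.13 against 5.87, ratio 0.83) and B and plasma cell markers high in PBS 1 (10.5 against 9.84, ratio 0.865). No cause was tested for these values.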

How the results depend on the processing

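The log2 fold change of Flna, which chose the set and is given as a description, ran from 1.48 (without PBS 3) to 1.66 (without Ex4 1) over 21 alternatives, and the other 8 genes were called in none of them. DESeq2 gave no adjusted p for Vcl and Actn1, so these genes could not be called there. The number of genes called over the whole table was 2 in edgeR, 83 with DESeq2 (48 higher and 35 lower), 1 with limma-voom and 8 with no filter on low counts. It was 1 with the replicate block, 1 with the epithelial score as a term and 1 with the run of label numbers as a term, which was added after seeing the data, and ran from 1 to 14 with 1 library left out, the 14 being without PBS 2. Of the cytoskeletal list genes, 171 of them tested in edgeR, DESeq2 called 3 (Arpc3, Flna and Pdzk1) and edgeR 1 (Flna). Over all genes DESeq2 called 0.895% of the 9277 to which it gave an adjusted p, and edgeR 0.0136% of 14691. Flna chose the set and the lists were drawn up with results known, so nothing is read from these counts. For genes near 0 the sign turned with the setting. Tln1 (0.07) ran from -0.0437 to 0.149 with 1 library left out and was -0.0509 with the epithelial score. Vcl (0.11) ran from -0.41 to 0.42, and was -0.0247 with limma-voom, -0.0071 with the replicate block and -0.0042 with the label run. Msn (0.03) ran from -0.0699 to 0.117, and was -0.0284 with log2 total counts and -0.0861 with the epithelial score as a term. Actn4 (-0.05) ran from -0.139 to 0.0159. These causes were not tested. By Spearman rho 7 genes reached the first 5 places through ties, and 0 of the 5 genes most like Flna by Pearson r were among them. Deviations of samples with the same number correlated at 0.0898, -0.0267, -0.235 and 0.144 over all genes tested, so the numbers are not taken as pairs. The median log2 fold change of all genes was 0.02 with TMM and lay between 0.0091 and 0.04 with the other scalings. With the epithelial score as a term Zyx was -0.40 and Actn1 0.13. Over the alternatives the list medians ran from -0.23 to 0.0114 for filamin partners, -0.0055 to 0.07 for talin and integrin genes, -0.06 to 0.05 for cross-linkers, -0.07 to 0.06 for ERM partners, -0.29 to -0.13 for zyxin and Ena/VASP, 0.0185 to 0.10 for actin polymerisation, 0.06 to 0.17 for actomyosin and 0.0284 to 0.16 for SRF targets. Depth gives Vcl, Actn1, Tln2 and Trip6 no more than 175 counts a library, and how far depth sets their spread was not tested.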
